A study of Mus musculus with 12 samples.

Results

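Gata2, Gata3, Tal1, Tal2, Sox14, En1, En2 and Otx2 encode transcription factors of the midbrain: factors of its GABAergic neurons, and factors that pattern the midbrain and the isthmus, its border with the hindbrain. The members were chosen by symbol, and these 8 genes were among the 32531 genes counted in every library. All 8 passed the filter on low counts over the 12 libraries. Gata2 and En2 had no count in any hypothalamus IP library and Tal2 had none in 1 of them, while the other 5 had counts in all 12 libraries.

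In the embryonic midbrain, progenitors of GABAergic neurons switch on the zinc-finger factors Gata2 and Gata3 and the basic helix-loop-helix factors Tal1 and Tal2, which work together in multiprotein complexes and promote the GABAergic over the glutamatergic fate. Sox14, an HMG-box factor, marks a group of these neurons. The homeodomain factors En1 and En2 are maintained around the isthmus by its Fgf8 signal and persist in several kinds of adult midbrain neuron, and the homeodomain factor Otx2 sets the front side of the isthmic border.

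The libraries came from translating ribosome affinity purification (TRAP-seq) of adult mice. In every group, controls included, the mice carried the JX883 transgene, in which sequences of Slc17a6, the gene of the vesicular glutamate transporter VGLUT2, drive an EGFP-tagged copy of the ribosomal protein Rpl10a. The 4 groups were midbrain IP (ribosome-bound RNA pulled down with antibodies to EGFP), midbrain input (RNA of the whole dissected tissue), hypothalamus IP and hypothalamus input, with 3 libraries each, numbered 1 to 3. The sources used here do not give the strain background, sex or number of mice behind a library, so p-values measure the spread between these libraries, which may be technical.

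Each library held 41909019 to 55148109 counts over genes. Levels are in CPM, that is, counts divided by the library's scaled size, and the floor of 3 counts lay at 0.0537 to 0.0710 CPM. The 3 IP and 3 input libraries of each region separated on the first principal component. Slc17a6 averaged 2738 ± 1087 CPM in midbrain IP against 775 ± 402 CPM in midbrain input, and 2118 ± 1227 CPM in hypothalamus IP against 349 ± 154 CPM in hypothalamus input (SD, n = 3 each). Markers of glia were low in the IPs: all 8 astrocyte and all 8 oligodendrocyte markers fell in IP against input in both regions. Over all genes tested 19.9% fell in the midbrain and 19.6% in the hypothalamus. The ribosomal RNA gene Rn45s took 12.5% of counts in midbrain IP replicate 1 and 12.3% in hypothalamus IP replicate 1, against between 5.21% and 6.85% in the other IP libraries.

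Gata2 lies on chromosome 6 (88193891 to 88207032, plus strand), Gata3 on chromosome 2 (9857078 to 9890034, minus strand), Tal1 on chromosome 4 (115056426 to 115071755, plus strand) and Tal2 on the same chromosome (53779705 to 53788712, plus strand). Sox14 lies on chromosome 9 (99874106 to 99876170, minus strand), En1 on chromosome 1 (120602418 to 120607992, plus strand), En2 on chromosome 5 (28165694 to 28172166, plus strand) and Otx2 on chromosome 14 (48657677 to 48673819, minus strand). All are protein-coding in the GENCODE M21 annotation of mm10. Gata3 shares 77 exonic bases on its own strand with 9230102O04Rik, which had 179 counts over all libraries against 4290 for Gata3. Otx2 shares 154 exonic bases with the antisense Otx2os1, which had 91 counts against 7614 for Otx2, and the sources used here do not give the strand setting of the counting.

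The sequences of En1 and En2 were compared because the pair had similar values within each group. Their longest identical stretch was 17 bases, in capitals here within 61 bases of coding sequence, of which 15 bases differed between the genes. The En1 stretch is chr1:120603338-120603398 and the En2 stretch is chr5:28166700-28166760, both on the plus strand of GRCm38.
En1: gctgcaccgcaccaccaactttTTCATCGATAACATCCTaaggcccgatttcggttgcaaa
En2: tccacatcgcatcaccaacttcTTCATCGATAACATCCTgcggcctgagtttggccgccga
The longest stretch common to transcripts of Gata2 and Gata3 was also 17 bases, and that of Tal1 and Tal2 was 12 bases. A read longer than such a stretch can be told apart between the genes of a pair.

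GATA factors bind the core word GATA, and the windows upstream of Gata2, Tal1 and Sox14, 3 members that work in GABAergic neurons, are shown with that word in view. In the RefSeq promoters of GRCm38.p6 (250 bases before to 50 after each start), 7 of the 8 members matched, En2 not, with 12 promoters in all. The word AGATAA was searched on both strands, and so was its form AGATAG, along with TGATAA and the variant TGATAG. They were found in 5 of the 12 promoters (41.7%), which belong to 4 members, against 29.8% of all 32851 promoters. The E-box CAGATG, searched on both strands too, was in 2 of the 12 (16.7%) against 17.2% of all. The windows are the 250 bases before the first start of Gata2 (chr6:88193641-88193890, plus strand), of Tal1 (chr4:115056176-115056425, plus strand) and of Sox14 (chr9:99876171-99876420, minus strand), with matches to these words in capitals.
Gata2: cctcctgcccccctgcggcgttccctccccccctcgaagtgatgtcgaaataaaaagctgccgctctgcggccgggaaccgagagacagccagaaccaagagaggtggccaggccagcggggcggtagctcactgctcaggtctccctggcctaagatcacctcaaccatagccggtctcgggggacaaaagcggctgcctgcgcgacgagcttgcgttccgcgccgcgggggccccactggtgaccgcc
Tal1: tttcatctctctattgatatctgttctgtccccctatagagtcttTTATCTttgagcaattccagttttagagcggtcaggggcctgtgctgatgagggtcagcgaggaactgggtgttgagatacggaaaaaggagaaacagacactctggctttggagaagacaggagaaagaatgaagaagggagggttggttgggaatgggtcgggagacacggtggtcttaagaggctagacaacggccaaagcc
Sox14: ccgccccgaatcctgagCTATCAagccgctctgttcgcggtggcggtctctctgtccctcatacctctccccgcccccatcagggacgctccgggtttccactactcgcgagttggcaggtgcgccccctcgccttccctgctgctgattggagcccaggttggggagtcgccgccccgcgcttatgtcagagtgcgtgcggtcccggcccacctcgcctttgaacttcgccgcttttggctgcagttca
The Gata2 window held none of these words, the Tal1 window held TTATCT at position -205 and the Sox14 window held CTATCA at position -233. These matches describe the letters only.

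In the midbrain, ribosome-bound RNA was low in Gata2, Gata3, Tal1 and Otx2 relative to the whole tissue, while the fractions overlapped for En1 and En2. Of the 8 members, 4 fell in midbrain IP against midbrain input and none rose by edgeR's quasi-likelihood test, where 33.9% of all 18128 genes tested were called, 19.9% as lower and 14% as higher. With the replicate number as a block, where 23.6% of all genes were lower, 5 members fell, the same 4 with Sox14. The members' median log2 fold change was -3.02, beside -0.05 over all genes tested. For 5 members every IP library lay below every input library, which held for 27.8% of all genes. In bulk RNA, fewer cells of a type and less RNA per cell cannot be told apart.

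The GATA factors, zinc-finger regulators that hold neurons in the GABAergic fate, were measured first. Gata2 had 0.468, 1.48 and 0.571 CPM in midbrain IP replicates 1, 2 and 3, against 6.97, 8.87 and 3.36 CPM in midbrain input. Gata3, which follows Gata2 in maturing neurons, had 1.96, 3.82 and 1.23 CPM in midbrain IP, against 24.2, 34.2 and 20.6 CPM in midbrain input. For both genes the fractions did not overlap, and replicate 2 was the highest library within each fraction. The log2 change was -2.93 for Gata2 (SE 0.87, adjusted p = 0.0257) and -3.49 for Gata3 (SE 0.78, adjusted p = 0.00506), and both genes fell. The Gata3 call held under every alternative tried (adjusted p at most 0.0277), but the Gata2 call was lost without midbrain IP replicate 1 (-2.64, adjusted p = 0.080), midbrain IP replicate 3 (-2.71, adjusted p = 0.0780), midbrain input replicate 1 (-2.86, adjusted p = 0.0623) or midbrain input replicate 2 (-2.62, adjusted p = 0.0783). Without all 4 replicate 1 libraries, a setting added after the data were seen, Gata2 gave -2.57 (adjusted p = 0.120), and over all alternatives its adjusted p lay between 0.00166 and 0.120.

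Tal1, a basic helix-loop-helix factor that binds DNA together with E proteins, had 0.914, 3.21 and 1.38 CPM in midbrain IP, against 25.9, 21.2 and 21 CPM in midbrain input. The fractions lay far apart, and Tal1 fell, with a log2 change of -3.63 (SE 0.54, adjusted p = 0.000449). Its relative Tal2, which is needed for GABAergic differentiation in the embryonic midbrain, was near the floor, with 17, 7 and 1 counts in midbrain IP against 14, 5 and 15 counts in midbrain input. These counts overlapped, and the Tal2 difference of -0.49 (95% interval -3.21 to 2.24, adjusted p = 0.80) shows little about a gene this low.

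Sox14 had 0.0213, 1.69 and 0.0635 CPM in midbrain IP, from 1, 88 and 3 counts, against 4.98, 7.34 and 3.26 CPM in midbrain input. All 3 IP libraries lay below the input libraries, but replicate 2 held nearly all of the IP counts. The difference of -3.12 (SE 1.38) missed the threshold (adjusted p = 0.10). With the replicate number as a block it was -4.26 and passed (adjusted p = 0.00580). Without midbrain IP replicate 2 it was -6.85 and passed (adjusted p = 0.0103), and it also passed by DESeq2 (-3.18, adjusted p = 0.0308) and by limma-voom (-4.93, adjusted p = 0.0278). Over all alternatives its adjusted p lay between 0.00580 and 0.332.

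The engrailed pair had values in midbrain IP that spread around those in the input. En1 had 3.85, 9.45 and 1.65 CPM in midbrain IP, against 5.21, 7.13 and 5.01 CPM in midbrain input. En2 had 4.42, 7.76 and 1.54 CPM in midbrain IP, against 4.92, 8.15 and 3.05 CPM in midbrain input. The fractions overlapped for both genes. The log2 difference was -0.22 for En1 (95% interval -1.37 to 0.94, adjusted p = 0.790) and -0.23 for En2 (95% interval -1.65 to 1.18, adjusted p = 0.813). Midbrain IP replicate 3 was the lowest of its group in both, and without it the differences turned to 0.20 for En1 and 0.18 for En2. Replicate 2 was the highest, and without it they were -1.07 for En1 (adjusted p = 0.134) and -0.85 for En2 (adjusted p = 0.40). Leaving out midbrain input replicate 2 also turned En2, to 0.20.

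Otx2 had 2.49, 2.92 and 2.65 CPM in midbrain IP, against 37.4, 47.3 and 35 CPM in midbrain input. Its IP libraries lay close together and far below every input library, and Otx2 fell, with a log2 change of -3.89 (SE 0.42, adjusted p = 5.43e-05). As a share of the mean input level, midbrain IP held 6.73% for Otx2, 8.08% for Tal1, 8.86% for Gata3, 11.4% for Sox14 and 13.1% for Gata2, but 85.1% for En2 and 86.1% for En1. Midbrain IP replicate 2 carried much of these shares other than that of Otx2. Without it, but with input replicate 2 kept, they were 0.816% for Sox14, 5.05% for Tal1, 6.04% for Gata3 and 6.43% for Otx2. They were then 8.11% for Gata2, 47.5% for En1 and 55.5% for En2. Without midbrain input replicate 2 instead, they were 7.41% for Otx2, 7.82% for Tal1, 10.4% for Gata3 and 14.4% for Sox14. They were then 16.2% for Gata2, 97.5% for En1 and 115% for En2. The shares were not computed without both libraries.

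**Figure D1:**
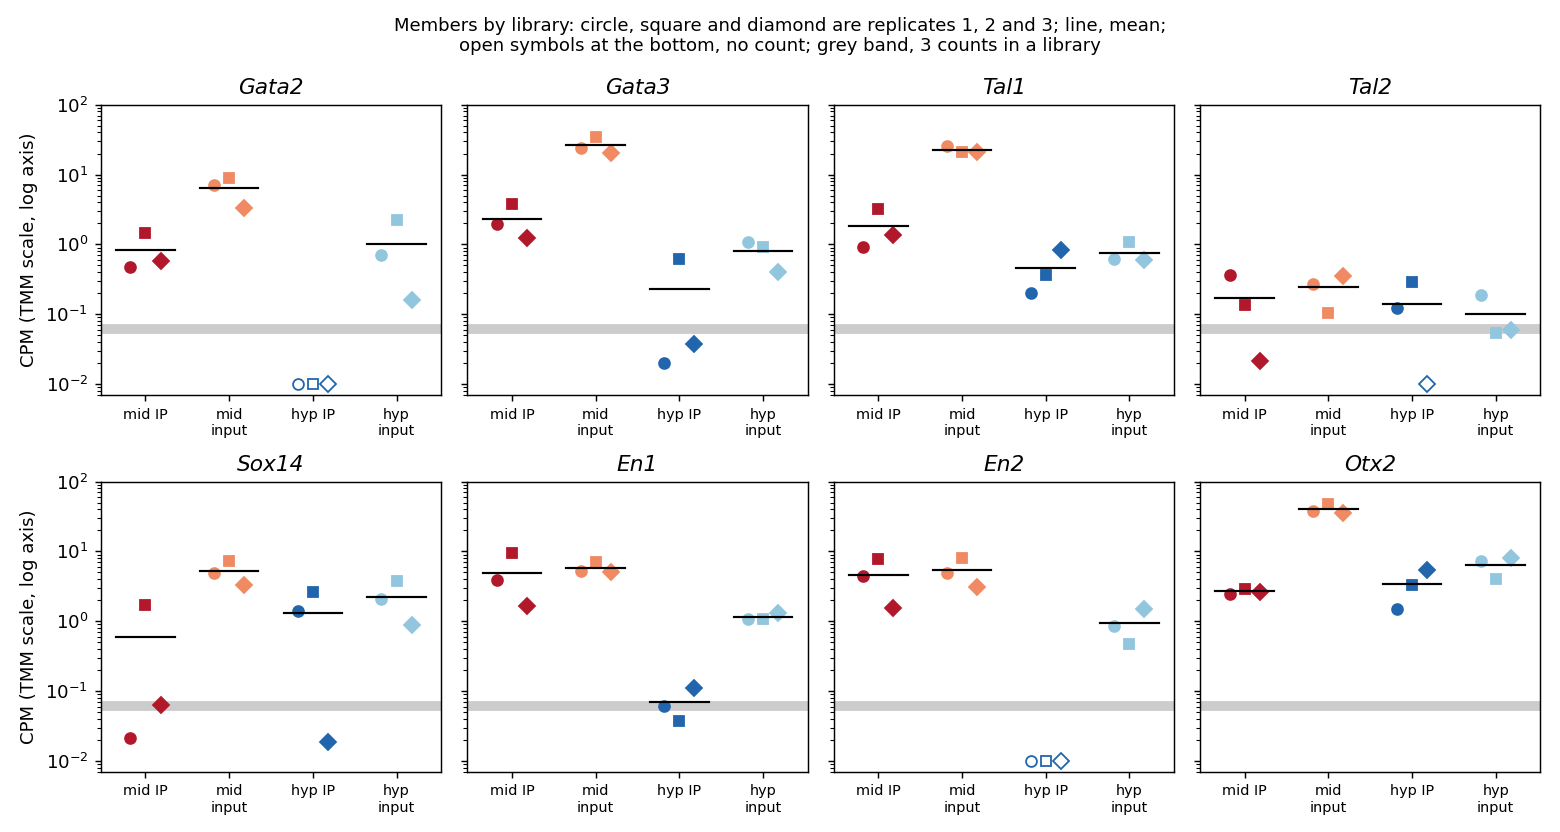
CPM on a log axis for each of the 8 genes in midbrain (mid) IP, midbrain input, hypothalamus (hyp) IP and hypothalamus input, where circles, squares and diamonds are replicates 1, 2 and 3, lines are means, open symbols at the bottom are libraries with no count and the grey band is the level of 3 counts. In the midbrain the IP points of Gata2, Gata3, Tal1 and Otx2 sit below the input points, while those of En1 and En2 overlap them.

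The makeup of the 8 genes' counts differed between the fractions accordingly, as a description of the same values. En1 and En2 together made up 57.1%, 56.5% and 35.1% of the 8 genes' counts in midbrain IP replicates 1, 2 and 3, against 9.22%, 11.4% and 8.80% in midbrain input. Even the lowest IP value, with a 95% Wilson interval of 30.8% to 39.7%, lay above the highest input value, with an interval of 10.6% to 12.2%. In the hypothalamus the share ran the other way, with 1.83%, 0.508% and 1.73% in IP against 14.0%, 11.3% and 22% in input. Intervals cover counting error only, as PCR copies of a molecule were not told apart.

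**Figure D2:**
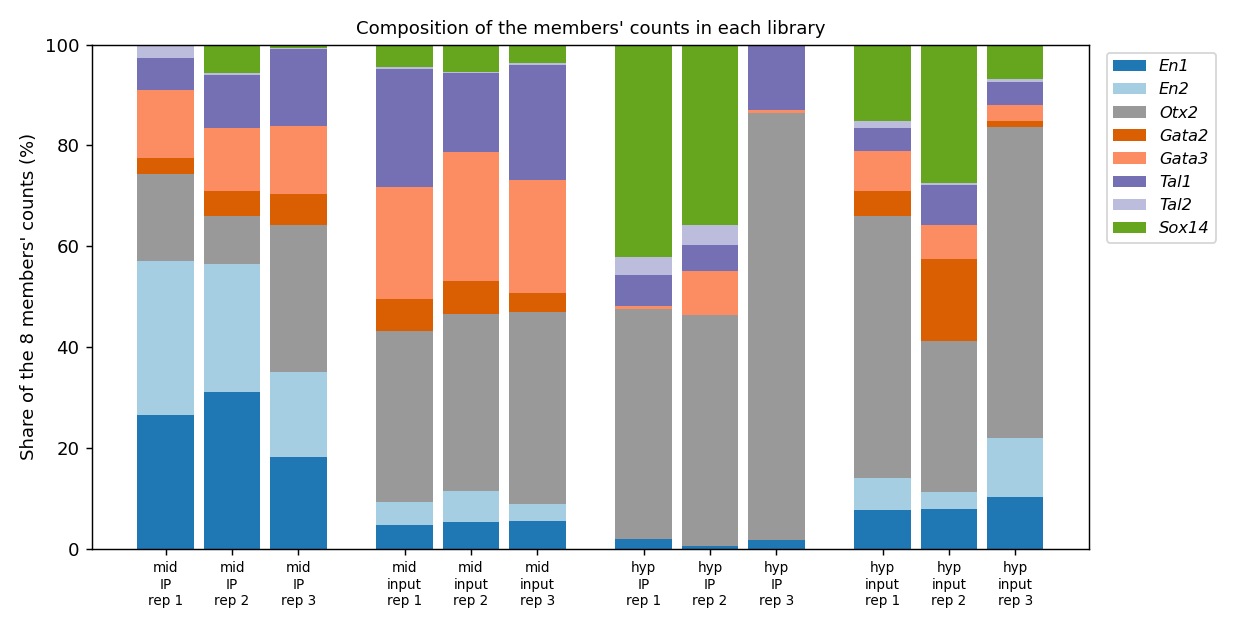
Stacked bars give the share of the 8 genes' counts (percent, to 100) that each gene takes in each of the 12 libraries (mid, midbrain; hyp, hypothalamus; rep, replicate). The blue En1 and En2 segments make up 35.1% to 57.1% in midbrain IP and 8.80% to 11.4% in midbrain input.

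In the hypothalamus, Gata2, En1 and En2 were low in ribosome-bound RNA relative to the whole tissue. Of the 8 members, these 3 fell in hypothalamus IP against hypothalamus input and none rose, where 33.8% of all genes were called, 19.6% as lower and 14.2% as higher. With the replicate number as a block, where 23.8% of all genes were lower, 5 members fell, the same 3 with Gata3 and Otx2. The first 3 were also the members whose groups did not overlap, which held in that direction for 27.3% of all genes. The members' median log2 fold change was -1.35, beside -0.08 over all genes tested.

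Gata2 had no count in any hypothalamus IP library, against 0.695, 2.22 and 0.161 CPM in hypothalamus input. Measured against the floor of 3 counts per library it was at least 17.9-fold lower in IP (adjusted p = 0.00201), and at least 7.48-fold lower without input replicate 2 (adjusted p = 0.00451). In a fit of only the 6 hypothalamus libraries Gata2 did not pass the filter on low counts. It was therefore not tested there, while En1 and En2 were called. Input replicate 2, the highest for Gata2, was also the library where the summed markers of the anterior pituitary, a tissue that expresses Gata2, were at 1617 CPM, against 36.8 CPM in input replicate 1 and 9.69 CPM in input replicate 3, an order that Gata2 shared. The hypothalamus IP libraries had 0.584, 61.5 and 0.281 CPM of these markers, and the part of pituitary tissue in the Gata2 values was not tested.

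En2 was without counts in hypothalamus IP too, against 0.863, 0.465 and 1.51 CPM in hypothalamus input, and was at least 16.5-fold lower in IP (adjusted p = 0.000724). En1 had 0.0604, 0.0367 and 0.112 CPM in hypothalamus IP, from 3, 2 and 6 counts, against 1.07, 1.07 and 1.33 CPM in hypothalamus input. Neither gene's fractions overlapped, and En1 fell, with a log2 change of -4.0 (SE 0.68, adjusted p = 0.000911).

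The other 5 members did not pass in the hypothalamus. Gata3 had 0.0201, 0.624 and 0.0375 CPM in hypothalamus IP, from 1, 34 and 2 counts, against 1.09, 0.931 and 0.403 CPM in hypothalamus input. IP replicate 2 alone reached the input range, and the difference was -1.80 (adjusted p = 0.120). Without that library Gata3 was at -4.68 and passed (adjusted p = 0.00197), a value that rests on IP libraries below the floor of 3 counts. With the replicate number as a block it was at -2.10 and passed (adjusted p = 0.0141). Over all alternatives the adjusted p of Gata3 lay between 0.00197 and 0.491.

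Otx2 had 1.51, 3.32 and 5.51 CPM in hypothalamus IP, against 7.18, 4.08 and 7.95 CPM in hypothalamus input. The 2 fractions overlapped, and the difference of -0.89 missed the threshold (adjusted p = 0.0954). It passed with the replicate block (-0.96, adjusted p = 0.0430) and without hypothalamus IP replicate 3 (-1.40, adjusted p = 0.0159), with a range over all alternatives from 0.0159 to 0.378. The summed markers of thalamic neurons, with 383, 692 and 2156 CPM, and those of cerebellar neurons, with 93.6, 149 and 473 CPM, had the same order over the hypothalamus IP libraries as Otx2. Their part in the Otx2 values was not tested. Otx2 is also made in the choroid plexus, whose summed markers were at 45.6, 27.9 and 27.8 CPM in hypothalamus IP and at 108, 60.8 and 59.5 CPM in hypothalamus input. Folr1, Slc4a5, Aqp1 and Calml4 had no count in these IP libraries. Of the 9 choroid plexus markers tested, 4 fell and 1 rose in IP against input, where 19.6% of all genes fell and 14.2% rose. The part of choroid plexus in the Otx2 values was not tested.

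Sox14 had 1.39, 2.59 and 0.0187 CPM in hypothalamus IP, against 2.10, 3.74 and 0.886 CPM in hypothalamus input. In both fractions replicate 2 was highest and replicate 3 lowest, and the difference was -0.75 (95% interval -3.53 to 2.02, adjusted p = 0.691). Tal1 had 0.201, 0.367 and 0.824 CPM in hypothalamus IP, against 0.610, 1.07 and 0.604 CPM in hypothalamus input, and its difference of -0.71 did not pass (adjusted p = 0.340). Tal2 had 6, 16 and 0 counts in hypothalamus IP against 9, 3 and 3 counts in hypothalamus input, too few to show a difference.

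**Figure D3:**
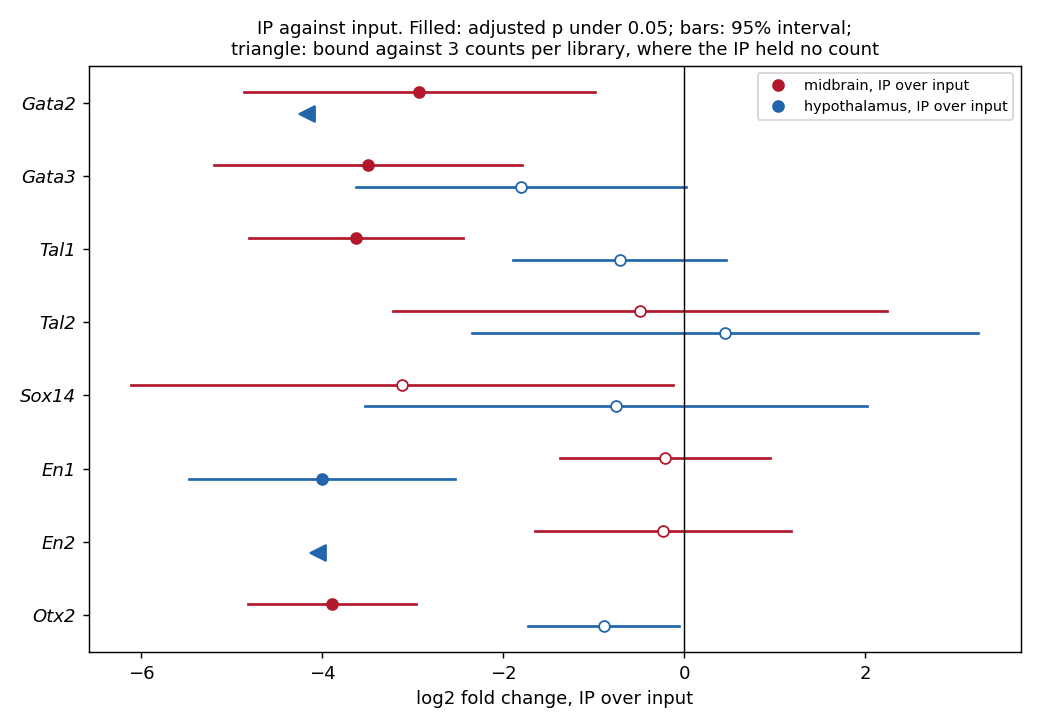
Log2 fold change of IP over input with its 95% interval for each gene, red for the midbrain and blue for the hypothalamus; filled points passed the threshold of 0.05 on the adjusted p, and triangles are bounds against 3 counts per library where hypothalamus IP held no count. En1 and En2 sit near 0 in the midbrain and at -4.0 and below a bound of -4.05 in the hypothalamus, whereas Otx2 and Tal1 are lower in the midbrain.

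Whether the IP effect differed between the regions was tested directly, as the log2 change in the midbrain minus that in the hypothalamus. None of the 8 members passed by edgeR's quasi-likelihood test, where 0.0772% of all genes, 14 in number, were called. At an unadjusted p under 0.05 there were 5 members, beside 6.56% of all genes. With the replicate number as a block, where 0.579% of all genes were called, En2 (adjusted p = 0.0376) and Otx2 (-2.95, adjusted p = 0.0225) passed. DESeq2, which called 1.18% of all genes, called 4 members, Tal1 (-2.93, adjusted p = 0.0157), En1 (3.82, adjusted p = 0.00536), En2 (7.82, adjusted p = 0.000128) and Otx2 (-3.03, adjusted p = 8.71e-05), and limma-voom called none. In the edgeR fit Otx2 differed by -3.00 (SE 0.55, adjusted p = 0.0921), En1 by 3.79 (SE 0.85, adjusted p = 0.189) and Tal1 by -2.91 (SE 0.75, adjusted p = 0.274). En2 had an adjusted p of 0.112, and its fitted value of 8.33 rests on hypothalamus IP libraries without a count. The fitted value of Gata2, 5.76 (unadjusted p = 0.0125, adjusted p = 0.516), rests on such libraries too. Sox14 differed by -2.37 (SE 1.83, adjusted p = 0.984) and Gata3 by -1.69 (SE 1.12, adjusted p = 0.929). Tal2, near the floor, differed by -0.94 (SE 1.80) and did not pass. Without hypothalamus IP replicate 1, where Otx2 was lowest, Otx2 passed (-3.36, adjusted p = 0.00919). The adjusted p ranged over all alternatives from 8.71e-05 to 0.255 for Otx2, from 0.000128 to 0.382 for En2, from 0.00536 to 0.634 for En1 and from 0.0157 to 0.588 for Tal1.

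Between the regions, midbrain IP held more RNA of the engrailed and GATA genes than hypothalamus IP. It held 13.1% of the midbrain input level for Gata2 and 8.86% for Gata3, but 85.1% for En2 and 86.1% for En1. Of the glial markers, 4 of 8 for oligodendrocytes, 1 of 8 for astrocytes and none of 8 for microglia were also higher in midbrain IP, and none was lower. The part of RNA from other cells in the values of Gata2 and Gata3 was not tested. Of the 8 members, 4 were higher and none lower in midbrain IP than in hypothalamus IP, where 4.26% of all genes were called, 2.21% as higher and 2.05% as lower. For 5 members every midbrain IP library lay above every hypothalamus IP library, which held for 8.52% of all genes. The members' median was 2.65, beside -0.01 over all genes.

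En2, at 4.57 ± 3.11 CPM in midbrain IP and without a count in hypothalamus IP, was at least 79.9-fold higher in midbrain IP (adjusted p = 0.00115), and at least 52.1-fold without midbrain IP replicate 2. En1, at 4.98 ± 4.02 CPM in midbrain IP and 0.0699 ± 0.0387 CPM in hypothalamus IP (SD, n = 3 each), rose by a log2 change of 6.11 (SE 0.71, adjusted p = 0.000645). Both calls held in every alternative tried, with adjusted p at most 0.0229 for En2 and 0.0189 for En1. Gata2 was at least 14.7-fold higher in midbrain IP (adjusted p = 0.0151), or at least 9.08-fold higher without midbrain IP replicate 2, a call that was lost without hypothalamus IP replicate 2 (adjusted p = 0.0511), without all replicate 1 libraries (adjusted p = 0.0524) and in a fit of only the 6 IP libraries (adjusted p = 0.0689).

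Gata3 was at 2.33 ± 1.34 CPM in midbrain IP and 0.227 ± 0.344 CPM in hypothalamus IP, the latter from 1, 34 and 2 counts. The log2 difference was 3.33 (SE 0.84, adjusted p = 0.0462). The groups did not overlap, but the call was lost without midbrain IP replicate 1 (3.44, adjusted p = 0.0774), midbrain IP replicate 2 (2.77, adjusted p = 0.132), hypothalamus IP replicate 1 (2.81, adjusted p = 0.0743) or hypothalamus IP replicate 3 (2.83, adjusted p = 0.0951). It was also lost with no filter (adjusted p = 0.0711), in a fit of only the 6 IP libraries (adjusted p = 0.274) and without all replicate 1 libraries (adjusted p = 0.155). Its adjusted p ranged from 0.000709 to 0.274 over all alternatives. Tal1 missed the threshold by little (1.97, SE 0.54, adjusted p = 0.0641). It passed with the replicate block (1.90, adjusted p = 0.0237), by DESeq2 (1.98, adjusted p = 0.00531), without midbrain IP replicate 1 (2.29, adjusted p = 0.0467) and without hypothalamus IP replicate 3 (2.67, adjusted p = 0.0251), within a range of 0.00531 to 0.334.

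Otx2, at 2.68 ± 0.218 CPM in midbrain IP and 3.45 ± 2.00 CPM in hypothalamus IP, differed by -0.36 (95% interval -1.20 to 0.48, adjusted p = 0.694), and by 0.15 without hypothalamus IP replicate 3. Sox14 averaged 0.591 ± 0.951 CPM in midbrain IP and 1.33 ± 1.29 CPM in hypothalamus IP, and with a difference of -1.16 (95% interval -4.0 to 1.69, adjusted p = 0.715) the libraries of the 2 regions overlapped. Tal2, at 0.172 ± 0.173 CPM in midbrain IP and 0.138 ± 0.148 CPM in hypothalamus IP, was near the floor in both.

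In the whole tissue, Gata3, Tal1 and Otx2 were the members higher in the midbrain. Of the 8 members, 3 were higher and none lower in midbrain input than in hypothalamus input, where 1.61% of all genes were called, 0.601% as higher and 1% as lower. With the replicate block, where 3.18% of all genes were higher, 5 members were higher, these 3 with Gata2 and En1. In 6 members the regions did not overlap, all with midbrain input above, which held for 10.2% of all genes. The members' median was 2.57, beside -0.01 over all genes.

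Gata3 averaged 26.3 ± 7.07 CPM in midbrain input and 0.809 ± 0.362 CPM in hypothalamus input, 5.02 higher on the log2 scale (SE 0.85, adjusted p = 0.0105). The Gata3 call was lost without midbrain input replicate 2 (4.79, adjusted p = 0.0524), without hypothalamus input replicate 2 (5.13, adjusted p = 0.0711) and without all replicate 1 libraries (5.35, adjusted p = 0.0576). Tal1 averaged 22.7 ± 2.78 CPM in midbrain input and 0.763 ± 0.269 CPM in hypothalamus input, 4.88 higher (SE 0.58, adjusted p = 0.00147). Otx2 averaged 39.9 ± 6.49 CPM in midbrain input and 6.4 ± 2.05 CPM in hypothalamus input, 2.64 higher (SE 0.40, adjusted p = 0.00630). The Tal1 and Otx2 calls held in every alternative, with adjusted p at most 0.0105 and 0.0414.

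The other members with separate groups missed the threshold. Gata2 was at 6.4 ± 2.80 CPM in midbrain input and 1.02 ± 1.07 CPM in hypothalamus input, and its difference of 2.64 had an adjusted p of 0.227, but passed with the replicate block (3.07, adjusted p = 0.0139). It also passed by DESeq2 (2.65, adjusted p = 0.0369) and limma-voom (3.19, adjusted p = 0.0451), in a range up to 0.533. En1 was at 5.78 ± 1.17 CPM in midbrain input and 1.16 ± 0.147 CPM in hypothalamus input, and its difference of 2.32 had an adjusted p of 0.0682, but passed with the replicate block (2.27, adjusted p = 0.0255) and by DESeq2 (2.34, adjusted p = 0.00190), in a range up to 0.279. En2, at 5.37 ± 2.58 CPM in midbrain input and 0.946 ± 0.527 CPM in hypothalamus input, differed by 2.50 (adjusted p = 0.130) and passed by DESeq2 alone (2.52, adjusted p = 0.00631).

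Sox14 was detected in the hypothalamus as well, at 5.19 ± 2.05 CPM in midbrain input and 2.24 ± 1.43 CPM in hypothalamus input. The inputs of the 2 regions overlapped, and the difference of 1.21 (95% interval -1.56 to 3.98) did not pass (adjusted p = 0.885). Tal2 was at 0.242 ± 0.128 CPM in midbrain input and 0.101 ± 0.0765 CPM in hypothalamus input, with a difference of 1.25 (adjusted p = 0.882).

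**Figure D4:**
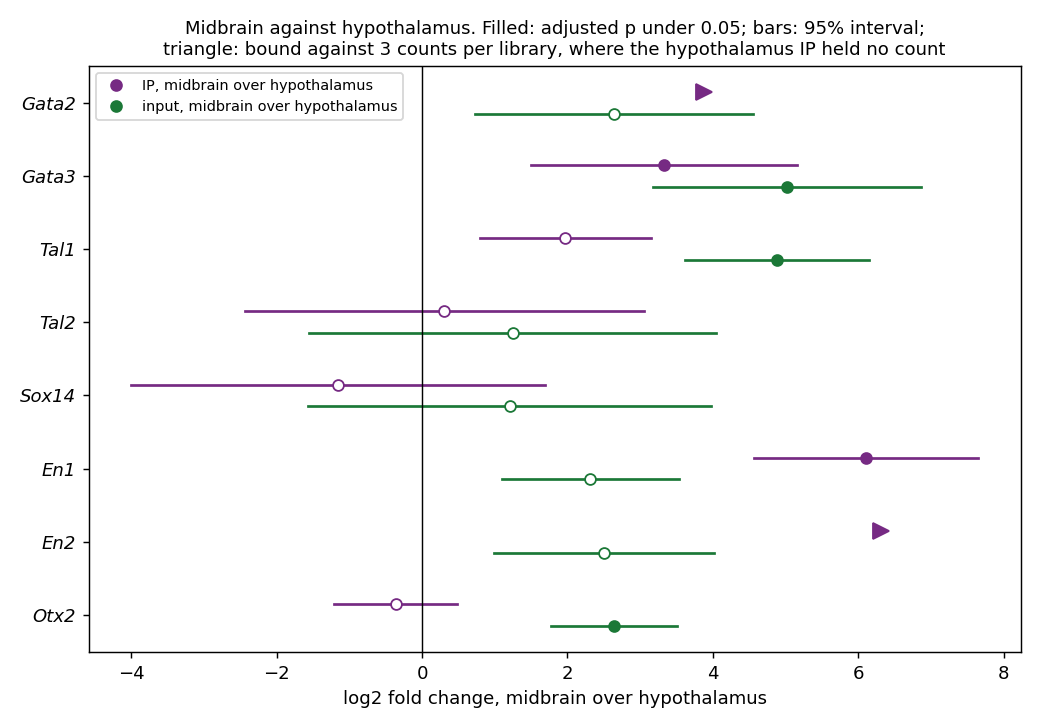
Log2 fold change of midbrain over hypothalamus with its 95% interval for each gene, purple for the IPs and green for the inputs; filled points passed the threshold of 0.05 on the adjusted p, and triangles are bounds against 3 counts per library where hypothalamus IP held no count. En1 and En2 are farther to the right in the IPs, at 6.11 and beyond a bound of 6.32, and Gata3, Tal1 and Otx2 are farther to the right in the inputs.

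Levels can be compared between genes only per exon length. In midbrain IP, En1 at 1.90 ± 1.53 CPM per kb and En2 at 1.29 ± 0.878 CPM per kb stood first, before Otx2 at 0.636 ± 0.0517 and Gata3 at 0.587 ± 0.336 CPM per kb (SD, n = 3 each). In midbrain input the order per kb was Otx2 at 9.45 ± 1.54, Gata3 at 6.62 ± 1.78, Tal1 at 5.18 ± 0.634 and Sox14 at 2.52 ± 0.991, before En1 at 2.20 ± 0.446, En2 at 1.52 ± 0.729 and Gata2 at 1.19 ± 0.519 CPM per kb. Neighbours in these orders overlapped between libraries, except that Tal1 lay from 4.79 to 5.91 and Sox14 from 1.58 to 3.55 CPM per kb in midbrain input. Hypothalamus IP was led by Otx2 at 0.817 ± 0.474 and Sox14 at 0.645 ± 0.623 CPM per kb, and hypothalamus input by the same 2 genes at 1.52 ± 0.486 and 1.09 ± 0.694 CPM per kb.

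Most members were highest in the same midbrain replicate. How often this replicate was highest over all genes was not counted, and some members had closely correlated profiles. Replicate 2 was the highest of its group for 7 of the 8 members in midbrain IP and for 6 of the 8 in midbrain input, and replicate 3 was the highest for none in midbrain IP and for 1 in midbrain input. The summed markers of midbrain regions (Pou4f1, Tfap2b, Irx2, Pax7, Nr4a2 and Slc6a3) had the same order in midbrain IP as En1 and En2, with 135, 192 and 81.6 CPM. Markers of cerebellar neurons had 122, 158 and 446 CPM there, and of choroid plexus 43.2, 34.8 and 1008 CPM in midbrain input, where Otx2 was lowest in replicate 3. The part of these tissues in the members' values was not tested.

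Over the 12 libraries, which fall into 4 groups and share pairs of fractions, the log2 CPM of En1 and En2 had a Pearson correlation of 0.99, that of Gata2 and Gata3 0.91 and that of Gata3 and Tal1 0.91, while Sox14 reached 0.21 with En1 and 0.20 with En2. These correlations are descriptions. Among 13409 other genes the profiles most like En1 were those of Bnc2 (0.954), Irx5 (0.952) and Zfp521 (0.950), and most like En2 those of Cplx2 (0.968), Meis2 (0.962) and Bnc2 (0.958). Meis2, for example, averaged 201 CPM in midbrain IP, 138 CPM in midbrain input, 6.28 CPM in hypothalamus IP and 107 CPM in hypothalamus input. For Gata2 they were Spp1 (0.935), Pou3f2 (0.930) and Lats2 (0.925), for Gata3 Sytl2 (0.962), Dazap2 (0.955) and Bnc2 (0.939), and for Tal1 Pax3 (0.957), Slc6a5 (0.946) and Ucn (0.940). For Sox14 they were Nupr1 (0.914), Bfsp2 (0.913) and Tle2 (0.912), and for Otx2 Pip4k2a (0.957), Nhlrc2 (0.939) and Pacs2 (0.936), with Tal2 left out as too low.

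Proteins that the GATA and TAL factors bind were encoded by 16 genes tested, most of which did not pass. Of them 1 rose and 5 fell in midbrain IP against input, with a median log2 change of 0.15, and 1 rose and 2 fell in the hypothalamus, with a median of -0.01. Over all genes 14% rose and 19.9% fell in the midbrain, and 14.2% rose and 19.6% fell in the hypothalamus. The E protein genes Tcf4 and Tcf12, whose products pair with TAL factors, fell in both regions, with log2 changes of -1.59 and -1.58 in the midbrain and of -1.38 and -1.17 in the hypothalamus. The LIM-domain binding gene Ldb2 rose by 1.12 in midbrain IP, and the adaptor gene Lmo2 by 0.80 in hypothalamus IP.

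Genes of GABA synthesis and transport were low in IP in both regions. Of 6 genes, 4 fell in each region and none rose. Over all genes 19.9% fell and 14% rose in the midbrain, and 19.6% fell and 14.2% rose in the hypothalamus. The called genes included Gad1 and Gad2, which make GABA, with log2 changes of -3.36 and -3.68 in the midbrain and of -2.50 and -3.20 in the hypothalamus. Slc32a1, the vesicular GABA transporter gene, had -3.29 in the midbrain and -3.78 in the hypothalamus, and Abat, whose product breaks GABA down, had -0.93 in the midbrain and -0.58 in the hypothalamus. Of 14 other transcription factors of GABAergic neurons tested, 11 fell in the midbrain (median -3.86) and 10 in the hypothalamus (median -3.40), and none rose. The shares over all genes are those given above. With the 2 genes without a midbrain IP count set at their bounds, the midbrain median was -3.49. In midbrain IP this list held Six3, with a log2 change of -4.06, and Dlx1, with -5.62.

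Of 17 other genes of the isthmus and of early midbrain patterning that were tested, 5 fell in midbrain IP against input and none rose, with a median of -2.34. Over all genes 19.9% fell and 14% rose there. Among the 5, the log2 change was -4.06 for Lmx1a, -3.21 for Foxa1 and -2.99 for Otx1, the closest relative of Otx2. In midbrain IP against hypothalamus IP 5 of the 17 were lower and none higher, where 2.05% of all genes were lower and 2.21% higher. In hypothalamus IP against input none of the 17 passed by edgeR's quasi-likelihood test, where 19.6% of all genes fell and 14.2% rose, and the median was 0.08. Between the inputs 1 gene of this list passed, Pax5, at 3.33 ± 2.27 CPM in midbrain input and 0.0210 ± 0.0365 CPM in hypothalamus input. Nhlh2, a relative of the TAL factors, rose in IP in both regions, by 1.37 in the midbrain and by 2.34 in the hypothalamus, and Sox21 fell in both, by a log2 change of -5.0 in the midbrain and -2.71 in the hypothalamus.

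Dopamine neurons, which also express En1, En2 and in part Otx2, were represented by 9 marker genes. Of these, 6 fell in midbrain IP against input (median -1.95), where 19.9% of all genes fell. Among the 6 were Th, the gene of tyrosine hydroxylase, with a log2 change of -2.40, and the dopamine transporter gene Slc6a3, with -3.93. The sums of the 9 markers were 110, 103 and 82.0 CPM in midbrain IP, against 577, 401 and 406 CPM in midbrain input. Endothelial cells express Gata2 and embryonic ones Tal1. Of 14 endothelial markers 11 fell in midbrain IP against input, beside 19.9% of all genes. Their sums were 26.5, 10.3 and 10.8 CPM in midbrain IP against 68.1, 48.7 and 55.7 CPM in midbrain input. The part of these cell types in the members' values was not tested.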

How the data were processed

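The libraries were the 12 described above, with raw read counts per gene symbol as the deposited values. Per the submitters' processing notes, the authors aligned reads with STAR 2.0.0e to mm10 and counted them with HTSeq; the sources used here do not give the annotation, strand setting or counting mode. The 5 HTSeq summary rows and a row named unknown, at most 1.32e-05% of counts, were left out. Positions came from GENCODE M21, promoter sequences from RefSeq (GRCm38.p6) and transcript sequences from GENCODE M21.

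The tests used edgeR 4.0.16 under R 4.3.3, with filterByExpr (18128 genes kept), scaling by the trimmed mean of M values (TMM), 1 fit of 4 group means over 12 libraries, robust quasi-likelihood tests, and Benjamini-Hochberg adjustment over all genes tested, with a threshold of 0.05. The 5 comparisons were IP against input in each region, midbrain against hypothalamus in each fraction, and the difference of the IP effects. CPM values are on the TMM scale, means are given with SD (n = 3), and intervals are at 95%. Folds of single members against a group without counts are bounds against 3 counts per library. Medians and differences of the IP effects use the fitted values unless bounds are named. The code was tested on simulated data. The members, lists and tests were chosen with earlier results of these data known.

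Every member was named in each comparison. From a list at most 4 called genes were named, those with the largest log2 change and at least 1 CPM in the higher group; the 3 most alike genes were chosen by Pearson correlation of log2 CPM (prior count 2).

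Alternatives were DESeq2 1.42.0, limma-voom (limma 3.58.1), other scalings and filters, replicate blocks, fits of only the 6 libraries compared, and leaving out libraries. Same-numbered libraries deviated together by correlations of 0.155 to 0.324 between fractions of the hypothalamus, 0.113 to 0.301 between the IPs and 0.141 to 0.379 between the inputs, so the numbers were read as pairs there. In the midbrain the correlations between fractions were 0.189, 0.0754 and 0.157 for replicates 1, 2 and 3. Each lay above the highest correlation with another number, at -0.0488, -0.0383 and -0.0252. The numbers were therefore read as pairs in the midbrain too, most weakly for replicate 2. The main tests held no term for these pairs, so calls that changed with the replicate block are given beside them.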

Additional observations from a re-analysis of the deposited data

How the results depend on the processing

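The counts of members called moved by over 1.5 times under few alternatives. In hypothalamus IP against input, 3 members became 5 with the replicate block and 5 with blocks by region and number. Between the IPs, 4 became 2 in a fit of only the 6 libraries compared and 2 without all replicate 1 libraries, in both cases En1 and En2. Between the inputs, 3 became 6 by DESeq2 and 5 with the replicate block, where 4.29% and 6.05% of all genes were called, beside 1.61% by edgeR without the block. For the difference of the IP effects, 0 became 4 by DESeq2, 2 with the replicate block and 2 with blocks by region and number, En2 and Otx2. In midbrain IP against input the replicate block called 5 members, Sox14 added (-4.26, adjusted p = 0.00580). Blocks by region and number called the same 5, with Sox14 at -4.63 (adjusted p = 0.00669). The replicate block changed no call other than these and those given with the comparisons. Leaving out 1 library gave 3 to 5 members in midbrain IP against input, 3 to 4 in the hypothalamus, 3 to 4 between the IPs, 2 to 3 between the inputs and 0 to 1 for the difference.

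Direction turned only for genes that did not pass, under these settings: Tal2 in hypothalamus IP against input was -0.40 by limma-voom and -0.18 with blocks by region and number, and Tal2 between the IPs was -0.89 without all replicate 1 libraries. Without 1 library, Tal2 lay from -1.59 to 0.032 in midbrain IP against input, from -0.72 to 1.25 in the hypothalamus, from -0.80 to 1.48 between the IPs and from -2.05 to 0.24 in the difference. En1 lay from -1.07 to 0.20 and En2 from -0.85 to 0.20 in midbrain IP against input, Otx2 from -0.72 to 0.15 between the IPs and Gata3 from -2.25 to 1.19 in the difference. The cause was not tested. Of the other values, 261 kept their direction and side of the threshold when 1 library was left out, while 6 came to pass and 11 no longer passed. Under the other alternatives 332 kept both, 25 came to pass and 7 no longer passed. Scaling by library size alone moved the median of all genes to -0.25 in hypothalamus IP against input, beside -0.08 with TMM, and to -0.13 between the inputs, beside -0.01. Depth limits what can be seen for Tal2, which had at most 17 counts in any library.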
